A study of Mus musculus with 2 samples.

Results

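Transcript levels of 10 adipogenic transcription factor genes were examined in PDGFRα+ cells of mouse inguinal fat: the peroxisome proliferator-activated receptor genes Pparg, Ppara and Ppard, the CCAAT/enhancer-binding protein genes Cebpa, Cebpb, Cebpd and Cebpg, the retinoid X receptor genes Rxra and Rxrb, and Ddit3, which encodes CHOP. The genes were chosen by name, and each had a single probe set naming it alone, so that 10 of 10 were measured among 19938 genes. The PreASKO array came from female mice aged 6 weeks of the Sox9 PreASKO genotype, and the floxed array from females of the same age with floxed Sox9. Both groups had received doxycycline at postnatal day 1, and the labels do not name the promoter that drives the deletion or the share of cells in which it occurred. In each group the cells were sorted with a PDGFRα antibody from the stromal vascular fraction, the non-adipocyte cells of the collagenase-digested pad, and RNA pooled from 3 mice was hybridised to 1 array.

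Because each group had 1 array, the differences are values without error or test, and animals within a pool cannot be told apart. Levels are log2 values made by the authors with RMA, a method that corrects background and makes arrays alike. Differences are PreASKO minus floxed on that log2 scale. The series names a change above 1.5-fold as its criterion, which is 0.58 on this scale. Probe sets differ in how brightly they report a transcript, so levels were compared between arrays for 1 gene and not between genes. Because the arrays hold bulk RNA, fewer cells of a type and less RNA per cell cannot be told apart.

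PPARγ is a nuclear receptor that binds DNA as a pair with an RXR partner and is required for fat cell differentiation. In cultured mouse preadipocytes, C/EBPβ and C/EBPδ are induced early and switch on Pparg and Cebpa, which then maintain each other and turn on the genes of the mature fat cell. C/EBPγ and CHOP are relatives that can pair with other C/EBP proteins and hold back their activity, and CHOP is also a stress-induced factor. SOX9 has been reported to bind the Cebpb and Cebpd promoters in mouse preadipocytes and repress them, so the comparison bears on how these early C/EBP genes stood in cells of the Sox9 PreASKO mice.

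To show the DNA through which this cascade is wired, the 250 bases before a transcription start are given for the first and the last of 3 annotated starts of Pparg and for Cebpb, from RefSeq (GRCm38.p6, plus strand, 5′ to 3′). Capitals mark letters matching a C/EBP-type motif (TTGCNNAA or, on the other strand, TTNNGCAA) or a nuclear receptor core motif (AGGTCA or TGACCT). The motifs were matched letter by letter and no match overlapped another.
Pparg first start, chr6:115360894-115361143: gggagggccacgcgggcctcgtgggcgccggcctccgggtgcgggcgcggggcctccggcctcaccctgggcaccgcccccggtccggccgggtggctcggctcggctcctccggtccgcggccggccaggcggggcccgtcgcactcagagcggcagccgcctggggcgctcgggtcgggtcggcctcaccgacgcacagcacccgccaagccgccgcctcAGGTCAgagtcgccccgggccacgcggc
Pparg last start, chr6:115421816-115422065: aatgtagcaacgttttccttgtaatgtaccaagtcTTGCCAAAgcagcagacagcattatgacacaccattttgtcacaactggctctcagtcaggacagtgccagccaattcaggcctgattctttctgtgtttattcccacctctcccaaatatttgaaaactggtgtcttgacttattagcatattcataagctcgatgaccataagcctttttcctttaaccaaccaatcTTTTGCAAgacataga
Cebpb, chr2:167688665-167688914: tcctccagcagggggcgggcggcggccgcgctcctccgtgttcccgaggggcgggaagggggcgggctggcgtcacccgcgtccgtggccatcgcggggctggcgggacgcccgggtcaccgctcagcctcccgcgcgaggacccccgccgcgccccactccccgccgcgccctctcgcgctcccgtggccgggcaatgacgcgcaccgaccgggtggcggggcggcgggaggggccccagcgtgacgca
The last Pparg start carried 2 C/EBP-type matches, from 215 to 208 and from 16 to 9 bases before the start, whereas the first start carried a nuclear receptor core motif from 28 to 23 bases before it. A C/EBP-type match occurred in 9.56% of 32851 promoters of the same length and in 1 of the 13 windows listed for 9 of the 10 genes. Cebpd had no window, so the counts given here do not cover its promoter. The nuclear receptor core motif occurred in 14.0% of promoters and in 3 of the 13 windows, those of Rxra (1) and Pparg (2). A SOX-type motif (AACAAT or ATTGTT) occurred in 9.42% of promoters and in none of the 13, including the Cebpb window, which says only that these letters are not in these 250 bases. The windows were rich in G and C. Their G+C content had a median of 69.6% with a range of 40.8% to 82.4%, and 11 of 13 exceeded 60%, against a median of 52.4% over all promoters, of which 27.0% exceeded 60%. The last Pparg start, at 40.8%, was the lowest, and the first Pparg start, at 82.4%, shared the highest value with a start of Rxrb. The Pparg probe set is annotated to the gene as a whole, so the values below do not separate its starts.

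None of the 10 regulator genes reached 1.5-fold. Over all 19938 genes 3.64% did, and over the 11015 genes above background in both arrays 2.15% did, so a count of 0 of 10 is near this background. The differences ran from -0.16 (Cebpb) to 0.12 (Ppard), with a median of -0.01 against 0 over all genes. The gene with the largest difference was thus 1.12-fold lower in PreASKO. All 10 lay within 0.16 of 0 on the log2 scale, as did 50.7% of all genes and 55.9% of those 11015 genes. Of the 10 genes 4 were higher and 6 lower in PreASKO, where 48.2% of all genes were higher and 48.0% lower by any amount. Without Ppara, which was below background on both arrays, 3 were higher and 6 lower. Of the 11015 genes above background in both arrays 5883 were higher and 4937 lower, with a median of 0.02. Sox9 itself, at 4.97 in PreASKO and 5.25 in floxed, differed by -0.27, or 1.21-fold. Of all genes 95% lay between -0.55 and 0.52, and whether its probes fall inside the deleted region was not examined, so this value does not check the deletion.

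**Figure D1:**
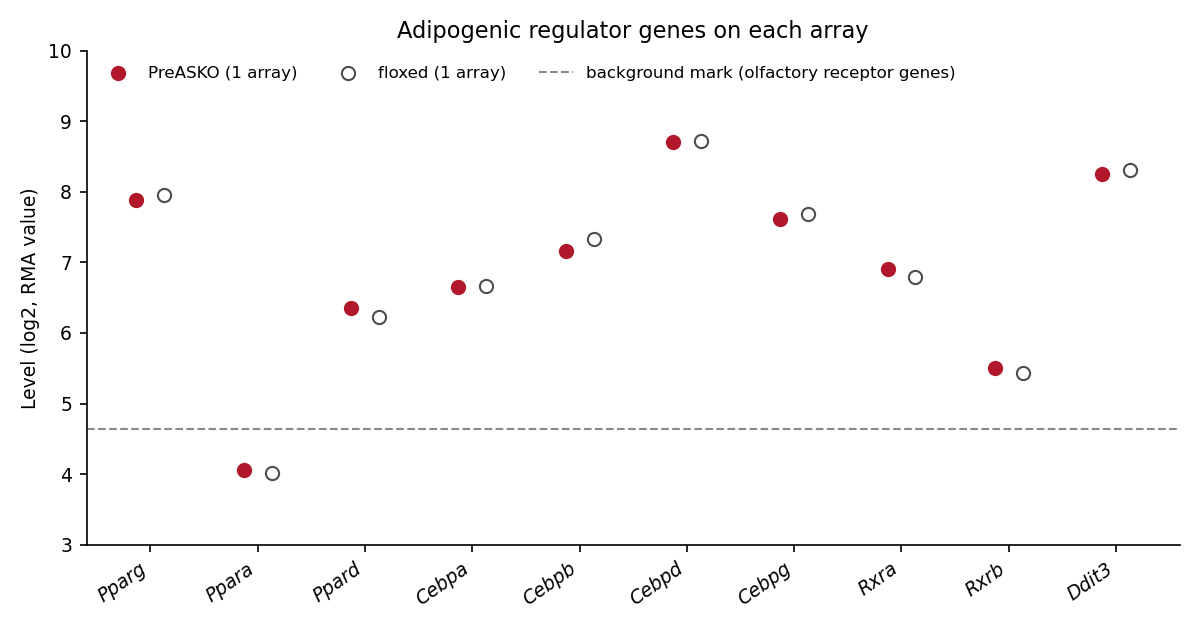
Level of each of the 10 genes (log2 RMA value) on the PreASKO array (filled) and the floxed array (open), with the background mark of 4.64 as a dashed line. The 2 points of each gene lie close together, and Ppara alone lies below the mark on both arrays.

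The PPAR genes did not move as a group. Pparg was at 7.88 in PreASKO and 7.95 in floxed, a difference of -0.07 or 1.05-fold lower. A difference of this size or larger was seen in 75.4% of all genes. Ppard, which encodes PPARδ, a receptor expressed in many tissues and tied to fatty acid oxidation, was at 6.35 in PreASKO and 6.23 in floxed, a difference of 0.12. This was the highest value among the 10 genes, and 59.7% of all genes differed by as much or more. Ppara, the fatty acid oxidation receptor best known from liver, was at 4.06 in PreASKO and 4.02 in floxed. Both values lay below 4.64, the 95th percentile of 1027 genes for olfactory receptors, used as a mark for genes that are silent in fat. Ppara was therefore not measured above background, and its difference of 0.04 has no order.

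The 4 C/EBP genes were all lower in PreASKO, by amounts that ran from nearly nothing to 1.12-fold. For Cebpa and Cebpd the amount was too small to give a direction. Lower by any amount were 48.0% of all genes and 4937 of the 11015 genes above background in both arrays. Cebpb, an early activator of the cascade, was at 7.17 in PreASKO and 7.33 in floxed, a difference of -0.16. Differences at least this large were found in 49.3% of all genes, so Cebpb stood in the middle of the table. Cebpd, the other early activator, was at 8.71 in PreASKO and 8.72 in floxed, a difference of -0.01. Cebpa, the later factor that works beside PPARγ, was at 6.66 in PreASKO and 6.67 in floxed, also a difference of -0.01. Cebpa and Cebpd were the 2 closest to 0 of the 10, and 94.3% and 93.9% of all genes differed by as much or more. Cebpg, the C/EBP protein with no activation domain of its own, was at 7.61 in PreASKO and 7.69 in floxed, a difference of -0.08. Relative to Cebpa and Cebpd, the difference of Cebpb was lower by 0.15 in both cases. Neither early C/EBP gene was higher in the cells of the Sox9 PreASKO mice. With 1 array a group and the deletion not checked, whether loss of SOX9 acted on them was not tested.

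Both RXR genes were slightly higher in PreASKO, as were 48.2% of all genes and 5883 of the 11015 above background in both arrays by any amount. Rxra, the RXR partner of PPARγ that is most studied in fat cells, was at 6.91 in PreASKO and 6.79 in floxed, a difference of 0.11. Rxrb, a broadly expressed relative, was at 5.50 in PreASKO and 5.43 in floxed, a difference of 0.07. Differences of these sizes or larger were seen in 60.9% and 78.3% of all genes. The difference of Pparg was 0.19 lower than that of its partner Rxra, and the difference of Cebpb was 0.28 lower than that of Rxra, the widest span between a C/EBP gene and an RXR gene. The third RXR gene, Rxrg, was at 3.37 in PreASKO and 3.71 in floxed, below background on both arrays, as was the granulocyte C/EBP gene Cebpe, at 4.03 in PreASKO and 3.92 in floxed. Cebpz had no probe set naming it alone.

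Ddit3 was at 8.26 in PreASKO and 8.30 in floxed, a difference of -0.05. It stood 3.61 above the background mark in PreASKO and 3.66 above it in floxed, and 83.6% of all genes differed by as much or more. Of the 10 genes, 9 were above background on both arrays, and Rxrb was the one nearest to the mark, 0.86 above it in PreASKO and 0.79 above it in floxed.

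**Figure D2:**
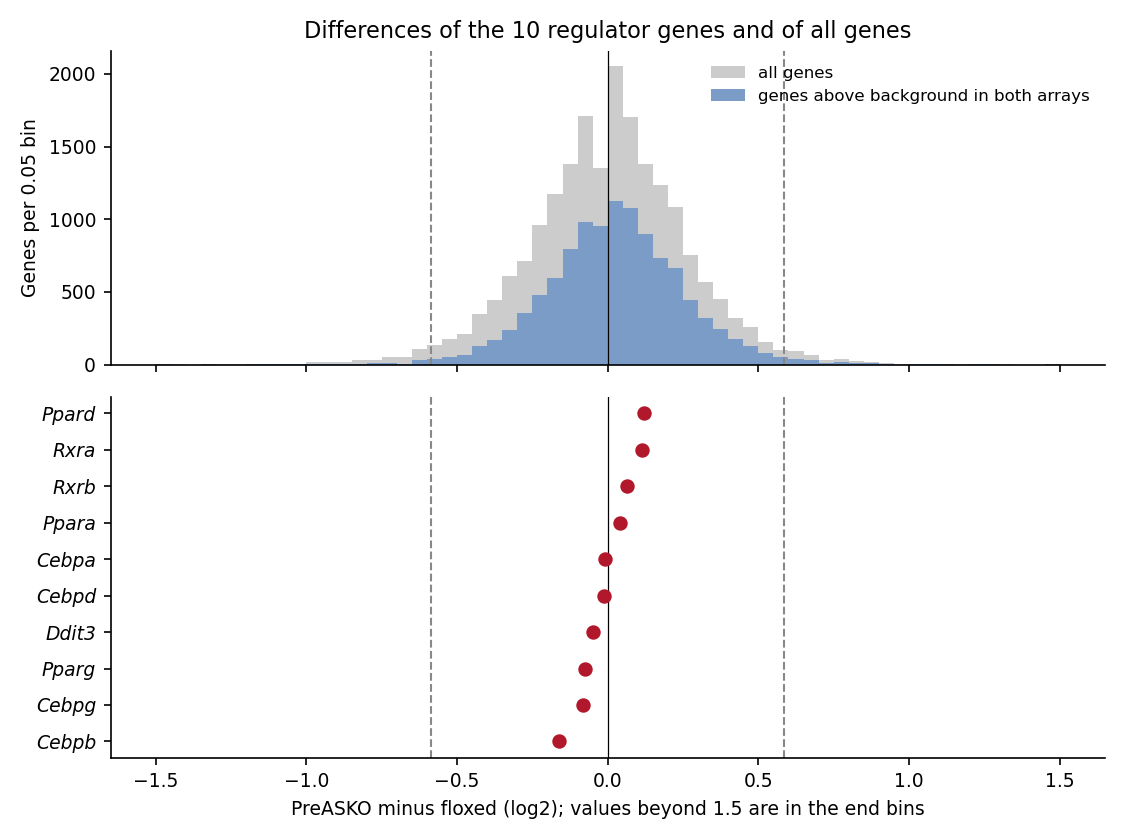
The upper panel counts genes by their difference PreASKO minus floxed (log2, bins of 0.05), for all 19938 genes in grey and the 11015 above background in both arrays in blue; the lower panel places the 10 regulator genes on the same axis, with dashed lines at 1.5-fold. The regulator genes fall in the middle of the distribution, between -0.16 and 0.12.

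The genes above and below these regulators in the cascade were described through 8 lists of 153 genes, of which 140 had a value. Of these 140, 1 was past 1.5-fold in the higher and 4 in the lower direction in PreASKO, beside 1.66% and 1.98% of all genes. With values below background raised to the mark, 1 was past the limit in the higher and 2 in the lower direction. Of the 140, 112 were above background on both arrays. Among factors that induce the cascade, 12 of 20 measured genes were higher and 8 lower, with a median of 0.09, and none passed 1.5-fold. Of the 19 above background on both arrays 11 were higher and 8 lower. Their median was 0.07, beside 0.02 over the 11015 genes above background in both arrays. With the mean over probe sets the median of the 20 genes was 0.04. Stat5b, a signal transducer of growth hormone that can promote Pparg expression, was at 6.57 in PreASKO and 6.11 in floxed, a difference of 0.46. Nr1h3, the oxysterol receptor LXRα, which also pairs with RXR, was at 5.40 in PreASKO and 4.97 in floxed, a difference of 0.44. Klf4, an early activator of Cebpb in cultured cells, differed by 0.25. On the lower side, Bmp4, a signal for commitment to the fat lineage, was at 5.57 in PreASKO and 5.88 in floxed, a difference of -0.30. Ebf2 and Klf9, which also act in favour of fat cell differentiation, differed by -0.24 and -0.14. Klf4 and Cebpb differed in opposite directions, both by under 1.5-fold, and a link between them was not tested.

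Among repressors of the cascade, 9 of 22 measured genes were higher and 13 lower, with a median of -0.03, and none passed 1.5-fold. Nr2f2, the orphan receptor COUP-TFII, was at 7.01 in PreASKO and 7.32 in floxed, a difference of -0.31. Zfp521, a zinc finger protein that opposes early B cell factors, was at 7.13 in PreASKO and 7.43 in floxed, a difference of -0.30. Sox9 followed at -0.27. Meis1, a homeobox factor, differed by -0.11, and Dlk1, which encodes Pref-1, by 0.07. The highest were Tgfb1, the growth factor TGF-β1, with a difference of 0.46, the interferon regulatory factor gene Irf3 with 0.29, and the Wnt effector gene Tcf7l2 with 0.19.

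Coregulators that PPAR and C/EBP proteins recruit were close to level. Of 21 measured genes 14 were higher and 7 lower, with a median of 0.05, and none passed 1.5-fold. Med1, the Mediator subunit that docks on PPARγ, was at 7.32 in PreASKO and 6.97 in floxed, a difference of 0.36. Carm1, an arginine methyltransferase coactivator, differed by 0.30 and Prdm16, a brown fat coregulator, by 0.15. Sirt1, a deacetylase that restrains PPARγ, was at 6.03 in PreASKO and 6.29 in floxed, a difference of -0.26. The corepressor complex genes Tbl1xr1 and Tbl1x differed by -0.20 and -0.18. A second, dimmer probe set of Tbl1xr1 gave -0.16. The PGC-1 coactivator genes Ppargc1a and Ppargc1b were below background on both arrays.

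Genes that PPARγ turns on in fat cells were near level, with 1 of 22 measured genes past 1.5-fold. Of the 22, 16 were higher and 6 lower with a median of 0.08, where 48.2% of all genes were higher. Raising values to background, which sets the 7 genes below it on both arrays to 0, brought that median to 0.004. Of the 15 genes above background on both arrays 11 were higher and 4 lower. Their median was 0.08, beside 0.02 over the 11015 genes above background in both arrays. The gene past 1.5-fold was Agpat2, an acyltransferase of triglyceride synthesis, at 5.24 in PreASKO and 4.65 in floxed. It was 1.51-fold higher, with the floxed value at the background mark of 4.64. Cd36, a fatty acid transporter also present on macrophages, was at 9.74 in PreASKO and 9.36 in floxed, a difference of 0.38, and Scd1, a desaturase, differed by 0.18. Fabp4, the fatty acid binding protein of fat cells and macrophages, was at 10.75 in PreASKO and 10.60 in floxed. Lpl, lipoprotein lipase, was lower by 0.16 on the log2 scale, at 11.04 in PreASKO and 11.20 in floxed, and Mgll and Plin1, which act in lipid release and droplet coating, differed by -0.07 and -0.05. Below background on both arrays were 7 of the 22, namely Adipoq, Aqp7, Retn, Cidea, Pck1, Gpd1 and Cidec. The other 15, among them Lpl, Fabp4, Cd36, Plin1, Plin4, Lipe and Slc2a4, were above background on both arrays. Of the 7, Retn lay just under the mark, at 4.59 in PreASKO and 4.55 in floxed.

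The fatty acid oxidation genes that respond to PPARα and PPARδ split in direction. Of 19 measured genes 8 were higher and 11 lower, with a median of -0.05, and 2 were 1.5-fold lower. Of the 14 above background on both arrays 8 were higher and 6 lower, with a median of 0.06, so the sign of the median turned. Pdk4, the kinase that blocks pyruvate use when fatty acids are burned, was at 6.18 in PreASKO and 6.93 in floxed, a difference of -0.75 or 1.68-fold lower. The other, Ucp3, was below background on both arrays and has no order. The carnitine palmitoyltransferase genes Cpt1a and Cpt2 differed by -0.17 and -0.16. In the other direction Slc25a20, the carnitine carrier of mitochondria, differed by 0.39, and the mitochondrial enzyme genes Acot2 and Acaa2 by 0.32 each. Ppard, whose protein can induce Pdk4, differed by 0.12, and 59.7% of all genes differed by as much or more. A link between Ppard and Pdk4 was not tested.

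C/EBP target genes, chosen from acute phase and cytokine genes, had 8 of 14 measured members higher and 6 lower. Their median was 0.08, or 0 with values raised to background. Of the 8 above background on both arrays 5 were higher and 3 lower, with a median of 0.11. Saa3, an acute phase protein gene, was at 3.83 in PreASKO and 5.0 in floxed. Its PreASKO value was below background, so it was at least 1.28-fold lower in PreASKO when set against the mark. Orm2 and Il6, an acute phase protein and a cytokine gene, differed by -0.23 and -0.15. Csf3r, a receptor of granulocytes and monocytes, was at 5.12 in PreASKO and 4.68 in floxed, a difference of 0.44. Its floxed value lay just above the background mark of 4.64. The cytokine signal inhibitor Socs3 differed by 0.24 and the chemokine gene Ccl2 by 0.16. A second probe set of Socs3 gave 0.10. Of the 14, 5 were below background on both arrays.

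Genes of the integrated stress and unfolded protein responses, in which Ddit3 is a late effector, had 11 of 20 measured members higher and 9 lower, with a median of 0.09. Of the 17 above background on both arrays 8 were higher and 9 lower, with a median of -0.003, and the median of all 20 was 0 with values raised to background, so the list had no direction. Atf4, the activator of Ddit3, was at 9.31 in PreASKO and 9.36 in floxed, and Atf3 was at 11.15 in PreASKO and 11.16 in floxed, differences of -0.06 and -0.01 beside the -0.05 of Ddit3. Ddit4, a stress-induced inhibitor of mTOR, was at 6.02 in PreASKO and 6.65 in floxed, 1.55-fold lower and the only gene of this list past the limit. Hspa5, the chaperone BiP, and the lipoprotein receptor gene Vldlr differed by -0.13 and -0.10. The translation inhibitor gene Eif4ebp1 differed by 0.50 and the serine synthesis enzyme gene Phgdh by 0.42. Sesn2 was at 4.76 in PreASKO and below background in floxed, at least 1.08-fold higher.

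**Figure D3:**
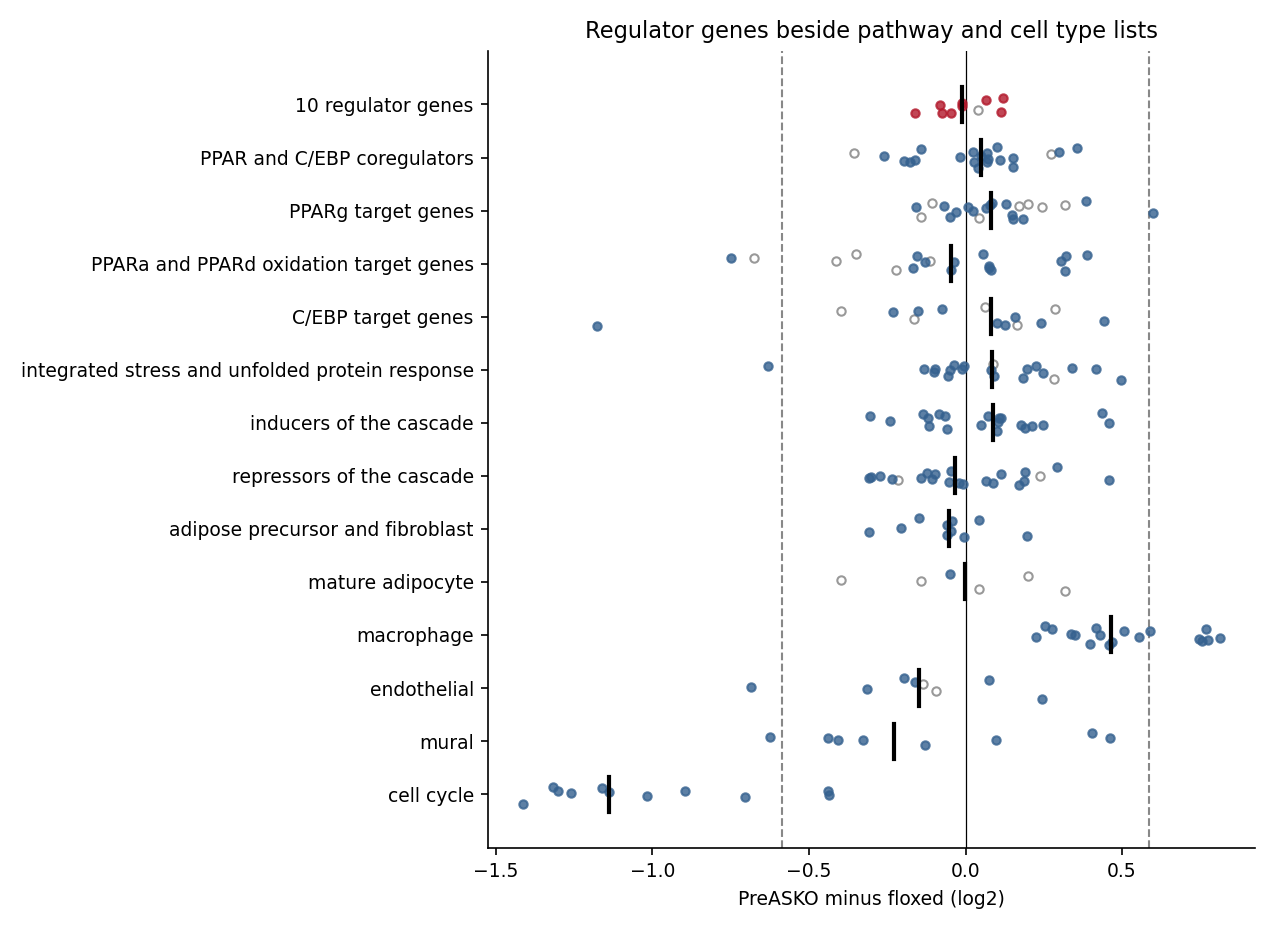
Each point is a gene's difference PreASKO minus floxed (log2) in the 10 regulator genes, 7 pathway lists and 6 cell marker lists; black bars are list medians, open points lie below background on both arrays, and dashed lines are at 1.5-fold. The regulator genes span 0.28, the narrowest row drawn, while macrophage markers lie to the right (median 0.46) and cell cycle genes to the left (median -1.14).

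The sorted cells carried the markers of adipose precursors and fibroblasts. All 10 measured markers were above background on both arrays. In PreASKO 2 were higher and 8 lower, with a median difference of -0.05. Pdgfra, the sorting marker, was at 9.55 in PreASKO and 9.86 in floxed, a difference of -0.31. Also lower were Dpp4 (-0.15) and Col1a1 (-0.21), and the 2 higher were Col3a1 (0.04) and Icam1 (0.20). Of 6 mature adipocyte markers 5 were below background on both arrays, all but Plin1. Macrophage markers were above background on both arrays in 18 of 18 cases and higher in PreASKO in all 18, with H2-Ab1 (0.81), Tyrobp (0.77) and H2-Aa (0.77) at the top. Summed on the linear scale the 18 amounted to 13963 units in PreASKO and 9742 units in floxed, a ratio of 1.43. Macrophages are known to express Pparg, Cebpa, Cebpb, Rxra, Nr1h3, Cd36, Fabp4 and Csf3r, and the part of the macrophage RNA in the levels and differences of these genes was not tested. Cell cycle genes were lower in PreASKO in 11 of 11 measured cases, 9 of them past 1.5-fold. Mki67 differed by -1.30, and Plk1 and Tpx2, below background in PreASKO, were at least 1.66-fold and at least 1.99-fold lower. Their sum was 413 units in PreASKO and 842 units in floxed, and its part in the regulator genes was not tested either.

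Endothelial markers, another cell type in which Pparg is expressed, had 2 of 8 members higher and 6 lower. Their median was -0.15, or -0.07 with values raised to background. Of the 5 above background on both arrays 2 were higher and 3 lower, with a median of -0.16. Kdr differed by -0.69, Tek by -0.20, Cldn5 by 0.25 and Cdh5 by 0.07, and Pecam1 was below background in PreASKO, at least 1.11-fold lower. Their sum, in which Tek as the brightest gene weighs most, was 451 units in PreASKO and 508 units in floxed. Mural markers had 3 of 8 higher and 5 lower, with a median of -0.23, including Kcnj8 (-0.62), Acta2 (-0.44), Abcc9 (-0.41), Notch3 (0.46) and Rgs5 (0.10), while Myh11 was at least 1.14-fold higher against the mark. Their sum was 452 units in PreASKO and 532 units in floxed. The part of these cells in the regulator genes was not tested.

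Both rescalings of the arrays left the differences of the regulator genes small. Each gene has 1 probe set and the median difference of all genes is already 0, so only loess correction and quantile normalization could move the 9 genes above background. Over the 20 values from these 2 rescalings the lowest was -0.19 (Cebpb) and the highest 0.10 (Ppard), and none reached 1.5-fold. Both rescalings lowered the difference of each of the 9 genes above background, by at most 0.03. The 4 C/EBP genes therefore stayed below 0, and both RXR genes lay too far above 0 to turn. The rescalings are thus no check on these signs. Cebpa was at -0.04 after loess correction and -0.03 after quantile normalization, and Cebpb at -0.19 and -0.18. Ppara became 0 when values below background were raised to the mark.

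**Figure D4:**
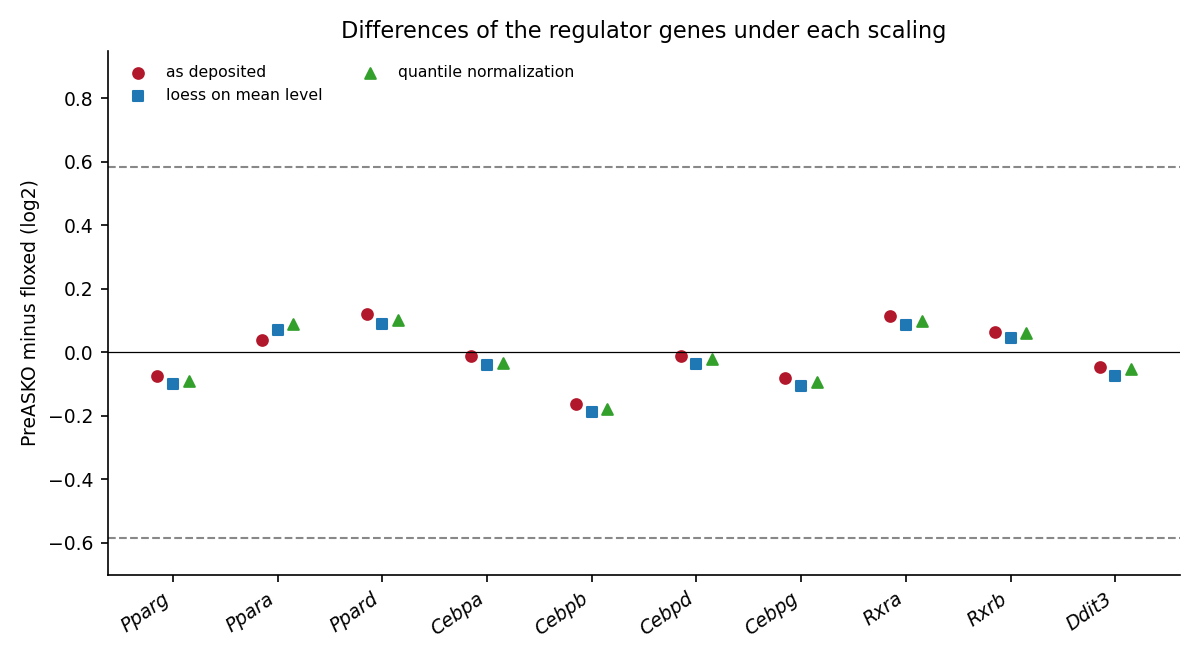
Difference PreASKO minus floxed (log2) of each regulator gene as deposited, after loess correction on the mean level and after quantile normalization, with dashed lines at 1.5-fold. The rescalings shift each of the 9 genes above background by at most 0.03 and Ppara, which is below background, by up to 0.05.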

How the data were processed

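Per the submitters' processing notes the authors summarised the arrays with RMA. Its version, the log base, a genome build and any filter are not given in the sources used here. The deposited values run from 1.23 to 13.8 and were taken as log2. The 2 arrays had medians of 4.71 (PreASKO) and 4.73 (floxed), and their number, 1 a group, limits the precision. RMA can understate differences of dim genes.

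Of 35556 probe sets 21789 named 1 gene in the platform annotation, which can be old, 1621 named more than 1 and 12146 had no entry in it and are left without a name. Probe sets with 1 gene gave 19938 genes, with the brightest probe set taken per gene. The identifiers of 10 of 10 regulator genes matched RefSeq (GRCm38.p6). Differences were set against 1.5-fold, with no test, and against a background mark (4.64, the 95th percentile of 1027 olfactory receptor genes, the higher of the arrays). Bounds written as at least a fold use that mark for the dim value. Marker sums add linear values with no background subtracted, so bright genes weigh most, dim genes add background, and the sums do not measure cell numbers.

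Genes and lists were chosen with earlier results of these data known. Named were the 10 genes, their relatives Rxrg, Cebpe and Cebpz, Sox9, Meis1, Dlk1 and Pdgfra, genes of pathway lists past 1.5-fold and up to 3 per list and direction above the mark. Fabp4, Atf4, Atf3, Ppargc1a, Ppargc1b and the dim targets were added after their values were seen. Alternatives were the mean over probe sets, centring, loess (span 0.3), quantile normalization and values raised to the mark, with a level floor, a 2-fold limit and every probe set for counts. The steps were tested on simulated data. Python 3.11.15, pandas 2.3.3, numpy 2.4.6, statsmodels 0.14.6 and matplotlib 3.10.9 were used.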

Additional observations from a re-analysis of the deposited data

How the results depend on the processing

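Values that shifted by less than 0.1 on the log2 scale and stayed on their side of 1.5-fold, and counts within 1.5 times, made up 261 of 281 recomputed values, among them all those of the 10 regulator genes, of whose 50 values 29 repeat the deposited difference by construction. The tolerance of 0.1 is larger than most differences of the regulator genes, so their staying within it is no check on them. It also passed the PPARγ target median, 0.08 as deposited and 0.004 with values raised to background. Centring changed no value, because the median over all genes was already 0. A list count of 0 also stays 0 at 2-fold or with the level floor. The counts over all genes (331 higher, 394 lower) were 161 and 103 with values raised to background, 161 and 107 above a level floor of 5.18, taken on the brighter array, 22 and 29 at the 2-fold limit, and 1608 and 1982 over every probe set. The last counts are of 35556 probe sets, 12146 of them without a name, and not of the 19938 genes, so they are not comparable with the others. At 2-fold the PPARγ targets past the limit (1 higher) numbered 0, as did the oxidation genes (2 lower) and the stress response genes (1 lower). The oxidation genes numbered 1 with values raised to background or the level floor, and the C/EBP targets (1 lower) 0 under both. Medians moved to 0 for Rxrg and Cebpe and -0.99 for cell cycle genes with values raised to background, to 0.074 for oxidation genes and -0.41 for mural markers with the level floor, and to -1.02 for cell cycle genes with the mean over probe sets. Beyond the construction of each setting the cause was not tested. Each regulator gene had 1 probe set, so no further probe set could be compared. No paired analysis was possible because there was 1 array for PreASKO and 1 for floxed, and leaving out a replicate was not possible either.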
